A study of Mus musculus with 12 samples.

Results

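The difference between the response to PD-1 blockade in obese mice and the response in nonobese mice was measured in B16-F10 tumors. For each gene, the log2 change from isotype control to anti–PD-1 in nonobese mice was subtracted from the same change in obese mice, so that a positive value marks a gene that responded more positively in obese mice. All 12 of the 12 tumors of the series entered this comparison, and 13095 of the 23420 genes in the count table had enough reads to be tested. The question that it addresses is whether the effect of PD-1 blockade on the tumor transcriptome depends on diet.

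B16-F10 is a melanoma cell line of C57BL/6 origin, and 200000 cells of this line were implanted under the skin of the flank of male C57BL/6J mice. The 4 groups, which crossed diet (nonobese or obese) with antibody (isotype or anti–PD-1), held 3 tumors each. Obese mice had received a Western diet with 0.2% added cholesterol, and nonobese mice a matching control diet, for 15 weeks from an age of 4 to 5 weeks. The anti–PD-1 antibody or its isotype control was injected at 10 mg/kg, 3 times per week, once tumors could be felt, and the tumors were collected on day 16. All groups share the cell line, the mouse strain and the sex, and each group includes an antibody injection. The labels number the tumors within a group without naming the mice, so P values measure the spread between these tumors. Messenger RNA of whole tumors was sequenced, and library totals ran from 14022929 to 33871843 counts per tumor. The 17 melanocyte markers, which check the labeled tissue, summed to between 27937 and 34353 CPM (the read count normalized to library size) in the 12 tumors. Nonobese anti–PD-1 tumor 3 stood apart from the others: its 20 cytosolic ribosomal protein genes summed to 14070 CPM, against 17757 to 23301 in the other 11 tumors. In bulk tissue, fewer cells of a type and less RNA per cell cannot be told apart, which holds for every level given below.

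PD-1 is an inhibitory receptor of activated T cells, and antibodies against it keep it from binding its ligands PD-L1 and PD-L2. Activated T and NK cells release interferon gamma, which acts through JAK kinases to induce antigen-presentation genes and guanosine triphosphatases (GTPases) of cell-autonomous defense. The interferon-stimulated response element is a promoter motif with a core of GAAA, any 2 bases and GAAA. The motif TTCNNNGAA is a binding motif of STAT family dimers. Whole melanomas also hold macrophages, fibroblasts, vessels and, where they border skin, fat and muscle, so the transcripts of these cells are read together with those of the melanoma cells.

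The promoters of 5 interferon-induced genes that responded more positively in obese mice are printed here with these motifs marked. They were taken, by smallest P value, from the named genes of the interferon lists whose window held either motif. The presence of a motif in these 5 therefore follows from the choice and is not a result. Ifit3 and Rsad2 encode antiviral proteins, Apol9a encodes an apolipoprotein L family member, and Irgm1 and Igtp encode immunity-related GTPases. Sequences are from RefSeq (GRCm38.p6), run 5′ to 3′ on the strand of the gene from 250 bases before to 50 bases after a transcript start of the window table, and carry the response element core, read on either strand, and the TTCNNNGAA motif in capitals.
Ifit3 (chr19:34583279-34583578, forward strand): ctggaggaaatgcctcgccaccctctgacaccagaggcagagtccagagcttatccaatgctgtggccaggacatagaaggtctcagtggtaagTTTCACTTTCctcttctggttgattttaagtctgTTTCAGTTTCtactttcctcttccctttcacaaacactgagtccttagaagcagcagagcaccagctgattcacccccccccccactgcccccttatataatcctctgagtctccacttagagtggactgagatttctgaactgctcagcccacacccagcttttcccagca
Rsad2 (chr12:26456403-26456702, reverse strand): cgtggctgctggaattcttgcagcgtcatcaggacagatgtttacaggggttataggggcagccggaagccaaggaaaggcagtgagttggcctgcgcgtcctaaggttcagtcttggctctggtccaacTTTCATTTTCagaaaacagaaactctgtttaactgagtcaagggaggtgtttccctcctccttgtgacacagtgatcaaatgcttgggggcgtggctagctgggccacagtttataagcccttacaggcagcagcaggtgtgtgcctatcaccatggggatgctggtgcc
Apol9a (chr15:77410985-77411284, reverse strand): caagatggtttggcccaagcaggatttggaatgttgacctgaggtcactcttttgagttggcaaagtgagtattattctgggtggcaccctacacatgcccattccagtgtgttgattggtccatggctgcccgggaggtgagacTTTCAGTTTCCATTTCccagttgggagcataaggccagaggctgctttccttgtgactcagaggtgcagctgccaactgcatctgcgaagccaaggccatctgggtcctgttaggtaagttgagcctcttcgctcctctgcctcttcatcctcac
Irgm1 (chr11:48871371-48871670, reverse strand): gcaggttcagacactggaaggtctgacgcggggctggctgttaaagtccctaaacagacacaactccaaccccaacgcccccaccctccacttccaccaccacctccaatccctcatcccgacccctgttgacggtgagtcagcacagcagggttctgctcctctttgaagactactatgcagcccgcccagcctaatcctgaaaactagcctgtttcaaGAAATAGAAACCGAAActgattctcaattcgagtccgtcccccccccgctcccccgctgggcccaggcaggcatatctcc
Igtp (chr11:58199306-58199605, forward strand): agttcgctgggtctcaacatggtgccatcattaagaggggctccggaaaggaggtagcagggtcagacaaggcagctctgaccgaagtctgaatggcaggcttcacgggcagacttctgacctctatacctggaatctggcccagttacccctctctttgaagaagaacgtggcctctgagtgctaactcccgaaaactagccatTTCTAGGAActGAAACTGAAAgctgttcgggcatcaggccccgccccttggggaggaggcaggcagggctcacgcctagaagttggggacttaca

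Distances below are from that start. For Ifit3 the window begins at 34583279, inside the gene as RefSeq lists it (from 34583119), so its start is not the first base of the listed gene. Ifit3 held 2 cores, which began 156 and 122 bases before the start of its window's transcript, and Rsad2 held 1, at 120 bases. In Apol9a, for which RefSeq gives 2 windows and the one with the lower coordinates is shown, 2 overlapping cores began 105 and 99 bases before the start. Irgm1 also held 2 overlapping cores, 30 and 24 bases before the start. Igtp held a TTCNNNGAA motif at 45 bases and a core at 34 bases before the start, without overlap. Among the 9753 tested genes with a promoter in the table, the core was found in 3.71% and TTCNNNGAA in 8.38%. The corresponding shares were 12% and 12% of the 443 promoters of genes that responded more positively in obese mice, and 4.11% and 6.85% of the 73 promoters of genes that responded more negatively. Of 10 promoters of interferon-inducible GTPases, 9 held the core and 6 held TTCNNNGAA. For type I interferon-stimulated genes the core was found in 15 of 26 promoters. It was found in 0 of 14 macrophage, 0 of 14 adipocyte and 0 of 11 fibroblast and collagen promoters, gene lists that also responded more positively in obese mice. For the other lists searched, the core was found in 4 of 17 MHC class I and 1 of 5 MHC class II promoters. It was also found in 3 of 18 promoters of interferon receptors and regulators and in 1 of 11 promoters of T and NK lymphocyte genes. A match shows that these letters occur in the window.

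At a fold difference above 2 and an unadjusted P below 0.05 from the quasi-likelihood F-test of edgeR, the thresholds used for calling, 645 genes responded more positively in obese mice (4.93% of the genes tested) and 109 responded more negatively (0.832%). These are the genes referred to as called below. With the Benjamini-Hochberg adjustment over all 13095 genes, 0 genes had an FDR below 0.05, 11 had an FDR below 0.1 and 391 below 0.2, of which 306 were more positive and 85 more negative. At the FDR of 0.05, DESeq2 gave 283 genes and limma-voom 0. At an unadjusted P below 0.05 without a limit on the fold, 918 genes were more positive and 769 more negative. Over all genes tested the median difference was -0.04 on the log2 scale, and 45.6% of genes lay above 0.

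The called genes were mostly of low abundance. When the genes tested were split into 4 equal bins by their mean level, 464 of the 645 more positive and 89 of the 109 more negative genes fell in the lowest bin (0.223 to 6.38 CPM), where the median standard error of the log2 difference was 0.62. At an unadjusted P below 0.05 with no limit on the fold, 475 genes were more positive and 124 more negative in this bin, whereas in the other bins, in rising order of level, the numbers were 196 and 259, 117 and 247, and 130 and 139. Of the called genes, which pass both thresholds, 18 more positive and 1 more negative gene fell in the highest bin (71.0 to 9317 CPM). The median standard error there was 0.18. The median level of the 645 genes was 2.46 CPM, against 26.4 CPM for all genes tested. Rbp4, which encodes retinol binding protein, had the largest log2 difference, 7.89, but rested on few reads. In nonobese mice its isotype tumors had 3, 20 and 3 counts and its treated tumors 0 each, and in obese mice the counts were 7, 0 and 1 before 14, 0 and 17. With 3 counts over the group taken as the floor for the group at 0, its log2 difference was 4.98. It was the only tested gene with a group at 0.

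The 645 genes did not reach their values by a single route. Their median log2 change with anti–PD-1 was -1.08 in nonobese and 1.03 in obese mice. Read along diet, the obese tumors lay lower than the nonobese ones under isotype (median -0.80) and higher under anti–PD-1 (median 1.39). The group with the highest mean was obese anti–PD-1 for 422 of these genes and nonobese isotype for 222. The lowest mean was in nonobese anti–PD-1 for 489 and in obese isotype for 156. For the 109 genes of the other direction, the medians were 0.70 in nonobese and -0.77 in obese mice, and the highest mean was in nonobese anti–PD-1 for 70 genes and in obese isotype for 39. The choice of genes by their difference favors opposite signs in the 2 diets, so these values are a description.

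**Figure D1:**
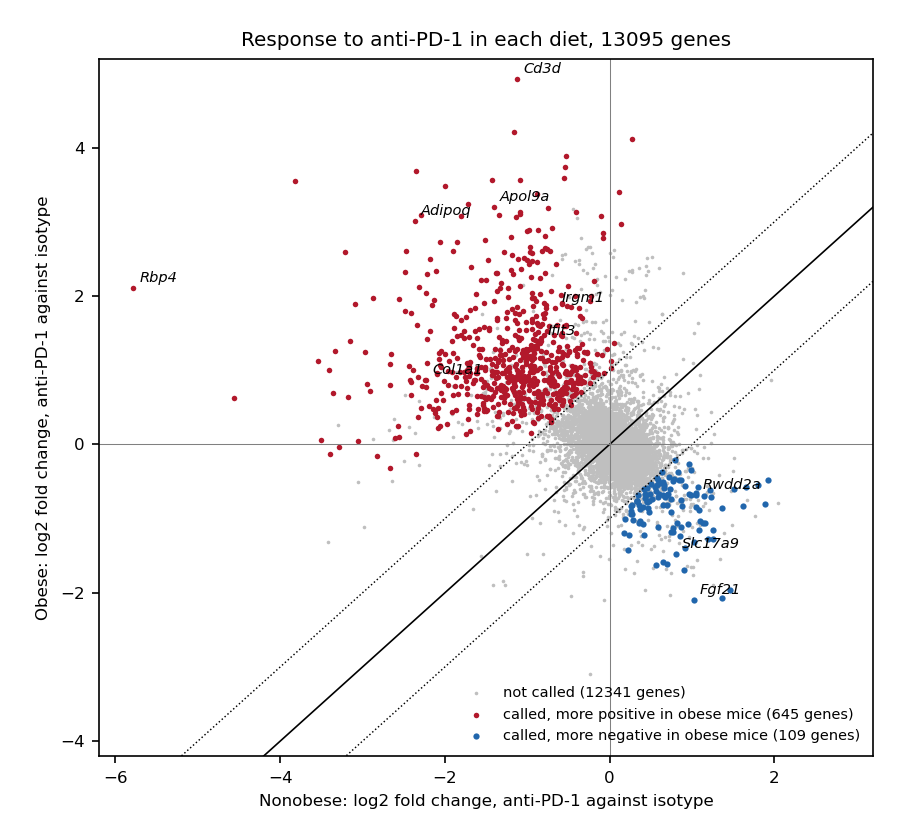
Log2 change from isotype to anti–PD-1 in nonobese mice (x axis) and in obese mice (y axis) for the 13095 genes tested, with 3 tumors per group; red and blue points are the 645 and 109 called genes, the solid line marks equal responses and the dotted lines a fold difference of 2. Most red points lie in the upper left quadrant, lower with anti–PD-1 in nonobese and higher in obese mice.

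A count that does not use the fold gave a different balance. Genes in which all 3 anti–PD-1 tumors lay below all 3 isotype tumors in nonobese mice and above them in obese mice numbered 94 (0.718%). Genes with the reverse arrangement numbered 93 (0.710%). The predominance of one direction, 645 against 109 genes, was therefore not seen in the number of genes whose groups separated in both diets. Of the interferon-stimulated genes 6 of 37 belonged to the first kind, as did 4 of 20 macrophage, 4 of 19 adipocyte and 4 of 19 MHC class I genes, and 0 genes of these 4 lists belonged to the second. The first kind held 0 of 21 fibroblast and collagen, 0 of 14 complement, 0 of 14 T and NK lymphocyte and 0 of 21 skeletal muscle genes.

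Type I interferon-stimulated genes responded more positively in obese mice for 24 of 37 genes, and 0 responded more negatively. All 37 had a log2 difference above 0, with a median of 1.36. Their median change was -0.38 in nonobese and 0.98 in obese mice, so the larger share of the difference lay in the obese arm. Under isotype, obese and nonobese tumors were close (median 0.04), and under anti–PD-1 the obese tumors lay higher by a median of 1.35. The genes not called included Mx1 (0.33), Oas2 (0.28), Eif2ak2 (0.26), Ifit2 (0.12) and Herc6 (0.02), which encode antiviral effectors or sensors, and the called genes ran up to Oas3 (3.52), Zbp1 (3.68) and Apol9a (4.61). Apol9a and Apol9b, and Ifit3 and Ifit3b, are close paralogs whose reads may not be separable.

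Ifit3 had the smallest P value of all genes. Its levels in nonobese mice were 12.5, 18.3 and 15.9 CPM with isotype and 7.57, 9.12 and 9.45 under anti–PD-1. In obese mice they were 16.4, 18.0 and 17.7 CPM with isotype and 29.1, 61.7 and 45.8 under anti–PD-1. The treated tumors thus lay below every control tumor in one diet and above every control tumor in the other. Across 21 alternative analyses its log2 difference stayed between 1.96 and 2.48, while its FDR ran from 1.87e-07 in DESeq2 to 0.281 in edgeR without nonobese isotype tumor 2. Rsad2, which encodes the antiviral enzyme viperin, showed another pattern: 23.3, 22.8 and 19.1 CPM against 18.7, 18.2 and 20.2 in nonobese mice, where the groups overlapped. In obese mice Rsad2 was at 25.4, 21.1 and 28.9 CPM with isotype and at 40.4, 58.1 and 50.7 with anti–PD-1, without overlap. Its log2 difference was 1.18 (standard error 0.21, edgeR FDR 0.103). Ifi27l2a, a small interferon-induced mitochondrial protein gene, was at 4.72, 9.23 and 9.77 CPM and at 2.80, 1.95 and 2.81 in nonobese mice. In obese mice it was at 5.47, 3.01 and 3.87 CPM with isotype and at 8.60, 8.71 and 14.1 with anti–PD-1, and its log2 difference was 2.99 (standard error 0.46, edgeR FDR 0.0596).

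Interferon-inducible GTPases were called for 16 of 16 genes tested (17 were listed), all more positive in obese mice, with log2 differences from 2.25 to 4.41 and a median of 3.28. The median change was -0.76 in nonobese and 2.30 in obese mice. Irgm1 (chromosome 11, 48865245 to 48871420), a regulator of this family, was at 61.8, 74.0 and 64.4 CPM in nonobese isotype tumors and at 31.6, 35.9 and 58.9 with anti–PD-1. The obese groups were at 48.3, 53.4 and 60.3 CPM with isotype and at 77.5, 307 and 194 with anti–PD-1. No tumors overlapped between treatments within a diet, but the treated tumors of the obese group also differed widely among themselves. The log2 difference was 2.50 (standard error 0.51, edgeR FDR 0.117). Igtp was at 20.7, 32.0 and 27.4 CPM and at 5.24, 10.1 and 21.9 in nonobese mice, where the groups overlapped. In obese mice it was at 18.0, 15.5 and 18.2 CPM and at 29.0, 173 and 91.1, a log2 difference of 3.61 (standard error 0.75). Tgtp2, with a close paralog in Tgtp1, differed by 3.88 (standard error 0.87), and Gbp10, a guanylate-binding protein gene, by 4.41.

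The summed level of the GTPase genes showed which tumors carried these values. It was 207, 265 and 247 CPM in nonobese isotype and 72.9, 110.0 and 226 CPM in nonobese anti–PD-1 tumors. In obese mice it was 170, 153 and 201 CPM with isotype and 254, 1289 and 740 CPM under anti–PD-1. Anti–PD-1 tumor 3 of the nonobese group thus lay within the isotype range, and anti–PD-1 tumor 1 of the obese group lay within the range of nonobese isotype tumors. Without obese anti–PD-1 tumor 2 the median difference of the list was 2.62, and without nonobese anti–PD-1 tumor 3 it was 4.23.

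**Figure D2:**
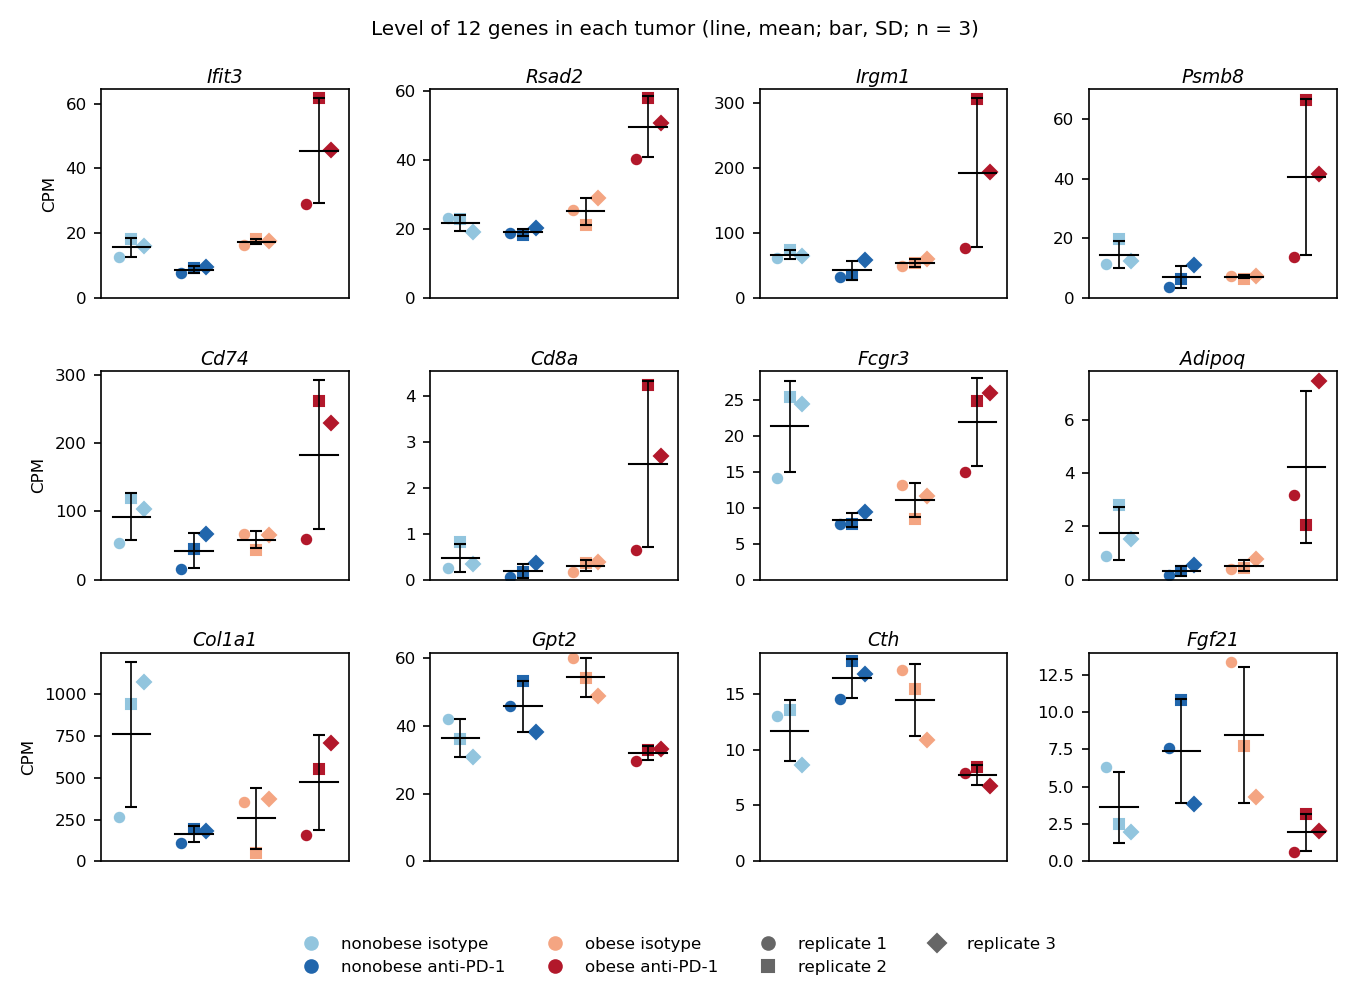
Level of 12 genes in each of the 12 tumors (CPM, linear axis from 0); colors are the 4 groups, marker shapes the replicate numbers, horizontal lines group means and bars SD (n = 3). Interferon-induced, antigen-presentation and T cell genes were highest in obese anti–PD-1 tumors 2 and 3, Fcgr3 and Col1a1 were as high or higher in nonobese isotype tumors 2 and 3, and Gpt2, Cth and Fgf21 were lowest on average in obese anti–PD-1 tumors.

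Of 20 receptors and regulators of interferon signaling, 5 were called more positive and 0 more negative, with a median difference of 0.26 (0.39 without obese isotype tumor 1). The receptor chains Ifngr1, Ifngr2, Ifnar1 and Ifnar2 had differences of -0.12, -0.40, -0.52 and 0.00, and the kinases Jak1, Jak2 and Tyk2 of 0.01, -0.33 and -0.23. The count was 8 without nonobese anti–PD-1 tumor 3 or obese anti–PD-1 tumor 1, and 3 without obese anti–PD-1 tumor 2. The called genes included the transcriptional regulators Irf5 (1.45), Irf7 (2.14), Irf8 (2.34) and Nlrc5 (2.23), which drives MHC class I genes. Irf1 (1.18) and Socs1 (1.25), a feedback inhibitor, were past the fold threshold without passing the P threshold. Ifng, which encodes interferon gamma, was below the filter: it had 1, 0 and 2 counts and 0, 1 and 4 counts in the nonobese isotype and anti–PD-1 groups, and 0, 0 and 1 counts and 1, 12 and 6 counts in the obese groups.

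MHC class I presentation genes were called more positive for 14 of 19 genes tested (22 listed), with a median difference of 1.27. The called genes included the immunoproteasome subunits Psmb8 (3.56), Psmb9 (3.34) and Psmb10 (1.89), the peptide transporters Tap1 (2.65) and Tap2 (2.12), and the heavy chains H2-K1 (1.31) and H2-D1 (1.21) with B2m (1.27), while the proteasome activator gene Psme1 (0.94) was not called. The general chaperones of the endoplasmic reticulum Calr, Canx and Pdia3 were not called, at -0.22, -0.16 and -0.40. Psmb8 (chromosome 17, 34198195 to 34201454) was at 11.4, 19.8 and 12.4 CPM and 3.66, 6.31 and 11.1 in nonobese mice. The levels in obese mice were 7.36, 6.43 and 7.45 CPM with isotype and 13.7, 66.4 and 41.7 under anti–PD-1. The groups did not overlap in either diet, and the standard error of its log2 difference was 0.67 (edgeR FDR 0.106). H2-T23, a nonclassical class I gene of a family with similar members, was at 14, 16.9 and 13.4 CPM and 9.30, 8.63 and 12.5 in nonobese mice, and at 11.3, 8.60 and 9.88 CPM and 18.1, 43.5 and 28.7 in obese mice. Its log2 difference was 2.15 (standard error 0.37, edgeR FDR 0.0855).

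MHC class II presentation genes were called more positive for 8 of 8 genes tested (11 listed), with differences from 1.34 to 2.98. H2-DMb1, which encodes a chain of the peptide-exchange factor, had the smallest difference. The called genes included Ciita (2.83), the master regulator of the class II locus, H2-Ab1 (2.98) and the lysosomal protease gene Ctss (2.55). Cd74, which encodes the invariant chain, was at 53.2, 119 and 103 CPM and 15.4, 44.5 and 66.1 in nonobese mice. In obese mice it was at 66.9, 43.6 and 65.1 CPM and 58.9, 261 and 229, so that obese anti–PD-1 tumor 1 lay inside the isotype range. Ctss was at 32.0, 73.8 and 68.3 CPM and 16.5, 23.5 and 26.3 in nonobese mice, and at 30.5, 28.5 and 38.4 CPM and 43.0, 87.7 and 87.4 in obese mice. It separated in both diets, with a standard error of 0.44 (edgeR FDR 0.0855).

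Among T and NK lymphocyte genes, 14 of 26 passed the filter on low counts, and 10 of these were called more positive in obese mice. A gene with reads in a single group passes this filter through that group, so the count describes the genes with enough reads there and is not a count over lymphocyte genes. Testing all 26 genes, which all had at least 1 count, gave 16 called, and requiring 10 counts in every tumor left 2 genes of which 0 were called. Cd8a, a coreceptor chain of cytotoxic T cells, had 8, 28 and 6 counts and 1, 5 and 8 counts in the nonobese groups, and 4, 5 and 8 counts and 9, 86 and 59 counts in the obese groups. Its groups overlapped in nonobese and not in obese mice, and its log2 difference was 4.43 (standard error 1.08, edgeR FDR 0.126). The cytotoxic genes Prf1 (perforin) and Nkg7 differed by 5.38 (standard error 1.36) and 4.97 (standard error 1.23). For Cd3d, a CD3 subunit gene of T cells, there were 4, 8 and 5 counts and 0, 3 and 4 counts in nonobese mice, and 0, 0 and 2 counts and 10, 22 and 38 counts in obese mice, a difference of 6.05 (standard error 1.3). Gzmb, which encodes granzyme B, differed by 4.98 (standard error 1.11). Prf1 had 10, 30 and 6 counts and 0, 4 and 13 counts in nonobese mice, and 4, 1 and 4 counts and 10, 120 and 43 counts in obese mice. Lck and Lat, signaling genes of T cells, were not called, at 0.20 and 0.09. The summed level of the lymphocyte list was 17.7, 52.5 and 41.2 CPM in obese anti–PD-1 tumors and 10.4 to 18.5 CPM in all others. Of 8 B and plasma cell genes 2 were tested and 1, Cd79b, was called, with 61 counts in obese anti–PD-1 tumor 3 and 3 to 30 elsewhere, and without that tumor, or with limma-voom, it was not called.

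Checkpoint receptors and ligands were called more positive for 4 of 10 genes tested (16 listed), namely Lag3 (2.21), Cd86 (3.0), Tnfrsf4 (2.22) and Vsir (2.06), which the table lists as 4632428N05Rik. Lag3, an inhibitory receptor of T cells, had 22, 45 and 13 counts and 7, 27 and 21 counts in nonobese mice, and 11, 7 and 16 counts and 9, 69 and 46 counts in obese mice. Without nonobese isotype tumor 2 or without obese anti–PD-1 tumor 2 it was not called. The antibody's own target gene, Pdcd1, had a difference of 2.85 and Cd274, which encodes PD-L1, of 0.56, and neither was called. The count of 4 became 2 without nonobese isotype tumor 2 or obese anti–PD-1 tumor 2 and 7 without nonobese anti–PD-1 tumor 3. Of the 5 checkpoint genes with at least 10 counts in every tumor, 1 was called.

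Macrophage genes were called more positive for 20 of 20 genes tested (21 listed), with log2 differences from 1.15 to 4.54. Their median change was -1.36 in nonobese and 0.85 in obese mice, so the larger share of the difference lay in the nonobese arm. Read along diet, the median was -0.88 under isotype, lower in obese tumors, and 1.41 under anti–PD-1. Fcgr3, an Fc gamma receptor gene, was at 14.1, 25.5 and 24.5 CPM and 7.73, 7.70 and 9.41 in nonobese mice, and at 13.2, 8.46 and 11.6 CPM and 14.9, 24.9 and 26 in obese mice. The groups separated in both diets, and the 2 extreme groups, nonobese isotype and obese anti–PD-1, had close means of 21.4 ± 6.29 and 22 ± 6.11 CPM (SD, n = 3). Pf4 and Pla2g7 also separated in both diets, with differences of 2.51 (standard error 0.45) and 2.75 (standard error 0.48). The scavenger receptor gene Cd163 changed by -3.15 in nonobese and 1.39 in obese mice, and Lyve1, a hyaluronan receptor gene, by -3.05 and 0.05, both chosen after their values were seen. Cd163 had 58, 211 and 195 counts and 3, 39 and 15 counts in nonobese mice, and 49, 5 and 51 counts and 18, 94 and 154 counts in obese mice, where the groups overlapped. In nonobese mice the 20 macrophage genes summed to 215, 458 and 413 CPM with isotype and to 125, 163 and 185 CPM with anti–PD-1. The sums in obese mice were 264, 153 and 212 CPM, and 245, 407 and 434 CPM with treatment.

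Complement genes were called more positive for 11 of 14 genes, with a median difference of 1.87. They included C3 (3.39), the central component, C4b (1.69) and the C1q chains C1qa, C1qb and C1qc (1.91, 1.78 and 1.84). The receptor gene C5ar1 was at 6.87, 13.1 and 10.4 CPM and 5.13, 5.32 and 4.24 in nonobese mice, and at 6.81, 2.80 and 4.92 CPM and 6.20, 9.89 and 11.8 in obese mice, where 1 isotype tumor overlapped with the treated tumors. Chemokines and their receptors were called for 12 of 18 genes tested (23 listed), with a median of 1.69. Cxcl9 (3.43) and Cxcl10 (1.92), which attract activated T cells through Cxcr3 (1.10), were called, as were the monocyte chemokines Ccl2 (1.68), Ccl7 (1.82) and Ccl12 (2.07) and their receptor gene Ccr2 (2.90). Ccl5, at 0.26, was not called. Cxcl10 was at 7.90, 15.4 and 14.2 CPM and 7.07, 6.06 and 9.81 in nonobese mice, and at 8.03, 7.62 and 9.84 CPM and 9.87, 28.0 and 21.1 in obese mice. In obese mice its lowest treated tumor was nearly level with its highest control tumor.

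Adipocyte genes were called more positive for 14 of 19 genes tested (20 listed), with median changes of -0.88 in nonobese and 1.22 in obese mice. Secreted products and lipid droplet coats of fat cells had the largest differences: Adipoq (5.38), Cfd (5.48), Retn (6.03) and Lep (3.68), and Plin1 (4.89), Plin4 (4.21) and Cidec (5.38). Retn and Plin1 rested on few reads (standard errors 1.36 and 1.18). Retn had 24, 19 and 6 counts and 0, 3 and 5 counts in nonobese mice. In obese mice Retn had 0, 2 and 1 counts and 6, 6 and 32 counts. Plin1 had 7, 40 and 9 counts and 0, 8 and 6 counts in nonobese mice. In obese mice Plin1 had 2, 6 and 6 counts and 30, 19 and 74 counts. The genes of this list that were not called included Pnpla2 (0.57), Scd1 (0.41) and Acsl1 (0.27). Adipoq, which encodes adiponectin, had 27, 96 and 27 counts and 3, 10 and 12 counts in nonobese mice, or 0.867, 2.82 and 1.53 CPM and 0.152, 0.309 and 0.535 CPM. In obese mice it had 9, 6 and 16 counts and 45, 42 and 164 counts, or 0.379, 0.420 and 0.764 CPM and 3.17, 2.07 and 7.48 CPM. The groups separated in both diets (standard error 0.87, edgeR FDR 0.0709). Lpl, which encodes lipoprotein lipase, was at 11.9, 26.4 and 15.8 CPM and 6.86, 9.74 and 11.5 in nonobese mice, and at 6.48, 6.43 and 10.7 CPM and 17.9, 23 and 35.5 in obese mice. Its log2 difference was 2.63 (standard error 0.47, edgeR FDR 0.0884). Of the 10 adipocyte genes with at least 10 counts in every tumor, 5 were called. Lrg1, a gene of a secreted glycoprotein that is in no list, was at 1.99, 7.26 and 6.70 CPM and 0.712, 1.48 and 2.01 in nonobese mice, where the groups overlapped, and at 0.673, 1.54 and 1.38 CPM and 5.29, 5.56 and 10.8 in obese mice. Its log2 difference was 4.52 (standard error 0.74, edgeR FDR 0.0709). Under isotype, the median difference of adipocyte genes between obese and nonobese tumors was -0.68, lower in obese tumors.

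**Figure D3:**
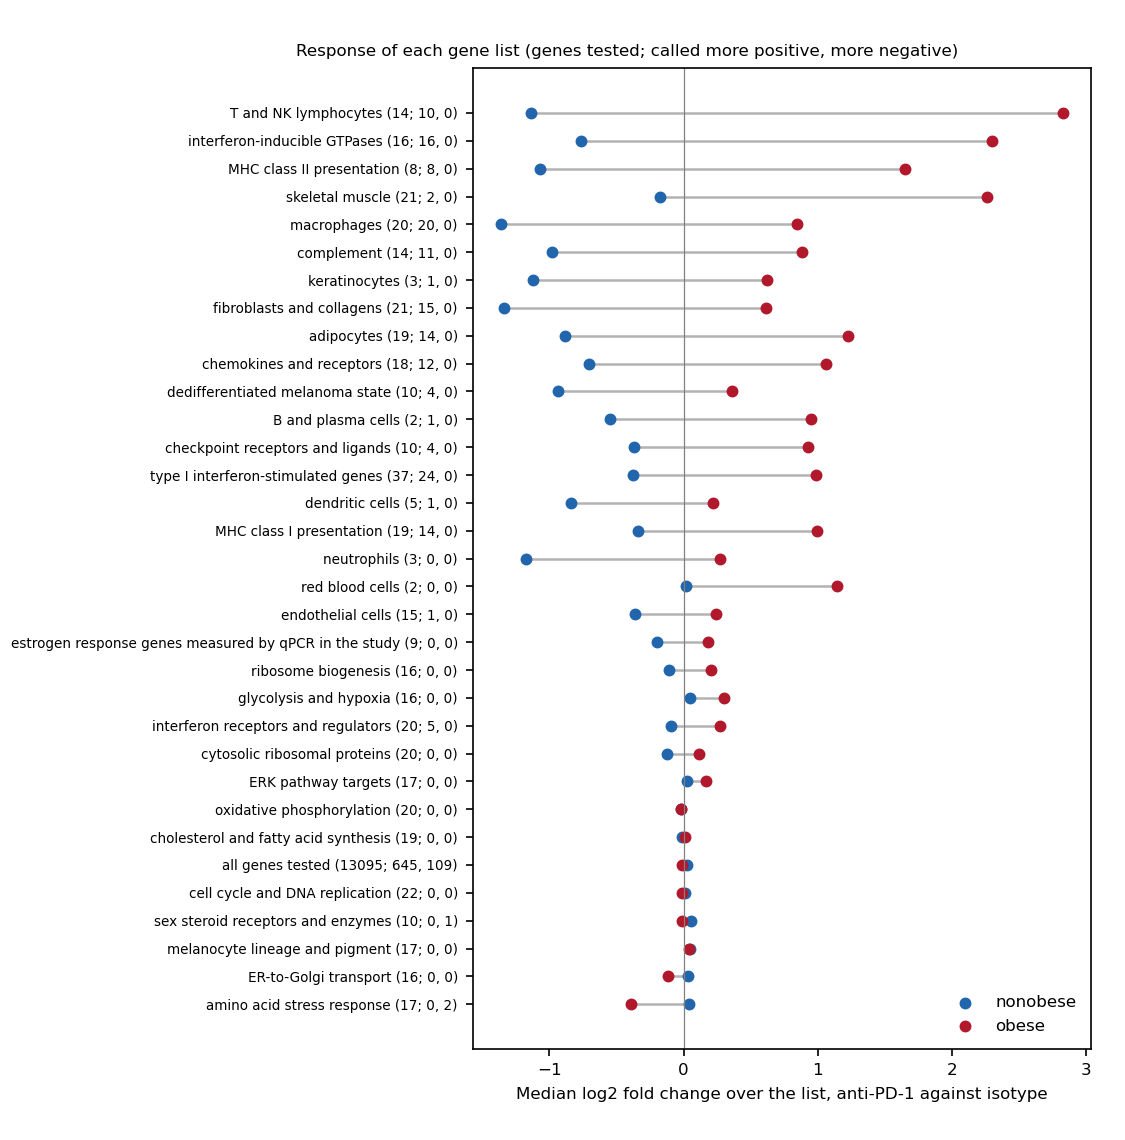
Median log2 change from isotype to anti–PD-1 over the tested genes of each of 32 lists and over all genes, in nonobese (blue) and obese (red) mice, ordered by the median difference; the numbers give the genes tested and those called in each direction. Macrophage, fibroblast and collagen lists lie farthest to the left in nonobese mice, whereas T and NK lymphocyte, GTPase and skeletal muscle lists lie farthest to the right in obese mice.

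Fibroblast and collagen genes were called more positive for 15 of 21 genes, with median changes of -1.34 in nonobese and 0.62 in obese mice. The fibrillar collagen genes Col1a1 (3.10), Col1a2 (2.75) and Col3a1 (2.59) were called, as was Loxl1 (2.66), whose product cross-links elastin. Sparc (0.15), Fbln1 (0.20), Fap (0.27) and Fn1 (0.84) were not called. Col1a1 was at 266, 943 and 1071 CPM and 108, 196 and 183 in nonobese mice, and at 354, 47.4 and 374 CPM and 158, 553 and 708 in obese mice. The groups separated in nonobese mice and overlapped in obese mice, where isotype tumor 2 was far below the other controls. Its standard error was 0.96 (edgeR FDR 0.208). Without obese anti–PD-1 tumor 3, or with a robust prior, 9 of the 21 genes were called. Endothelial genes were called for 1 of 15 genes, Tek (2.31), with a median difference of 0.62, and for 4 without obese isotype tumor 1 or without obese anti–PD-1 tumor 1.

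Skeletal muscle genes had a median difference of 2.22, and all 21 lay above 0, but 2 of 21 were called, Myh2 and Mylpf, and 0 with DESeq2, limma-voom or a robust prior. The median was 1.39 without obese anti–PD-1 tumor 3 and 3.83 without obese isotype tumor 3. With single tumors left out the count ran from 0 (each of 6 tumors, among them obese anti–PD-1 tumors 2 and 3) to 9 without nonobese isotype tumor 1 and 10 without obese isotype tumor 3. Their summed level in nonobese mice was 49.7, 563 and 511 CPM with isotype and 34.9, 332 and 599 CPM under anti–PD-1. The sums in obese mice were 34.6, 46.3 and 225 CPM, and 76.3, 411 and 921 CPM with treatment. In every group the tumor numbered 1 was the lowest, and the groups overlapped in both diets. Nonobese isotype tumors 2 and 3 and obese anti–PD-1 tumors 2 and 3 had the 4 highest macrophage sums (407 to 458 CPM) and the 4 highest fibroblast and collagen sums (4175 to 6274 CPM, against 1943 to 3841 in the others), and their muscle sums ran from 411 to 921 CPM. Of the keratinocyte list 3 of 14 genes were tested and 1 was called, Krt5, with 176 counts in nonobese isotype tumor 2 and at most 27 in any other. It had 0, 13 and 0 counts in obese anti–PD-1 and 9, 0 and 0 in obese isotype tumors, so that its obese change rests on 1 tumor per group. Krt5 was not called with DESeq2, limma-voom or the current form of the quasi-likelihood fit, nor without nonobese isotype tumor 2. Of 9 dendritic cell genes 5 were tested and 1 was called, Itgax (2.50), of 12 neutrophil genes 3 were tested and 0 called, and of 6 red blood cell genes 2 were tested and 0 called. Both red blood cell genes were called without nonobese anti–PD-1 tumor 1. For neutrophils, DESeq2 called 1 of 3 genes, and leaving out single tumors gave 1 or 2 called of 4 tested, with 2 without nonobese isotype tumor 1 or nonobese anti–PD-1 tumor 3. Whether the amount of connective tissue, fat and muscle in a piece of tumor takes part in the differences above was not tested.

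**Figure D4:**
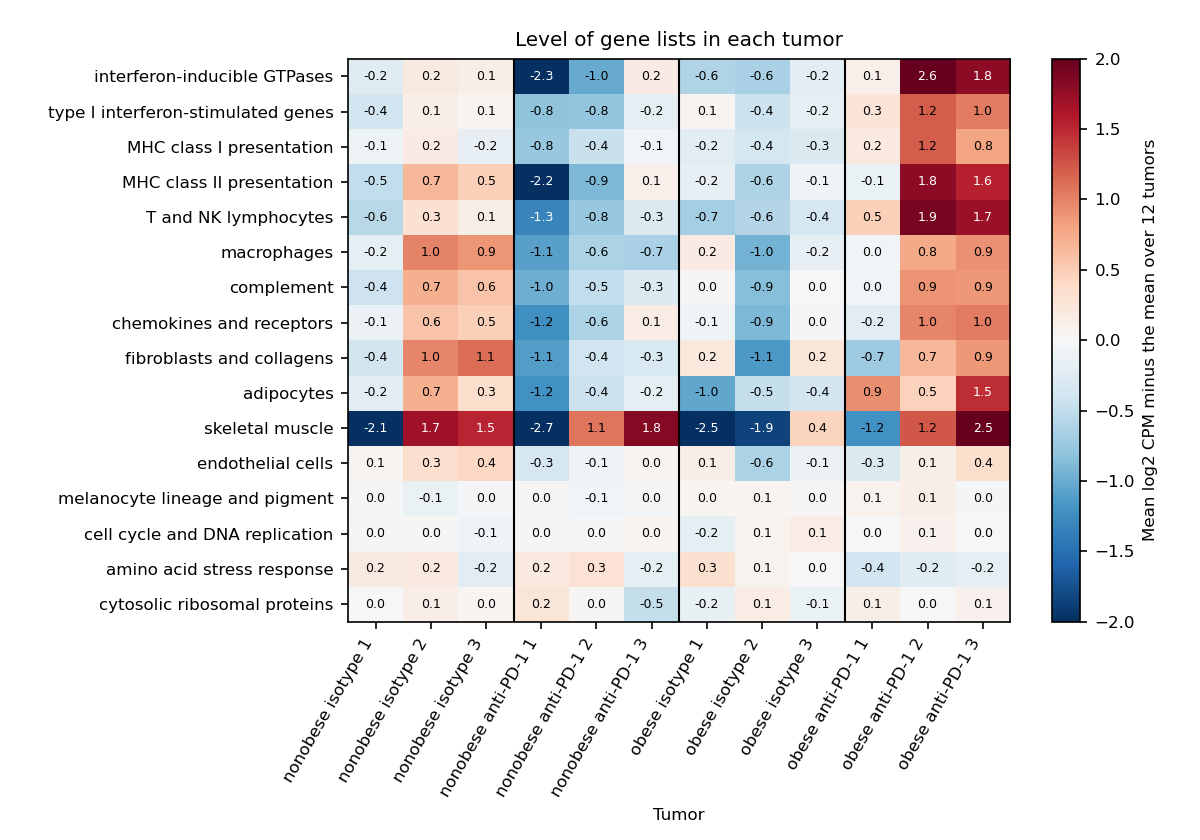
Mean log2 CPM of 16 gene lists in each tumor minus the mean of that list over the 12 tumors (colors saturate at 2). Nonobese isotype tumors 2 and 3 and obese anti–PD-1 tumors 2 and 3 are high for macrophage, complement, collagen and muscle lists, and obese anti–PD-1 tumors 2 and 3 are also high for the interferon, MHC class I and lymphocyte lists, in which nonobese isotype tumors 2 and 3 are near the mean. The muscle list is also high in nonobese anti–PD-1 tumors 2 and 3 (1.08 and 1.84).

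Among lists of melanoma cell and general metabolic genes, calls in the positive direction were made in the dedifferentiated state alone (median 1.5). Of 17 melanocyte lineage and pigment genes 0 were called, with differences from -0.49 for Mitf, the lineage transcription factor, to 0.60 for Ednrb. Of 10 genes of the dedifferentiated melanoma state 4 were called more positive, among them Axl (2.09), Egfr (2.50) and Tnc (2.03), genes that fibroblasts or macrophages also express. Tnc was not called with a robust prior, without nonobese isotype tumor 3 or without obese anti–PD-1 tumor 3. Sox9, at -0.70, lay on the other side, and without obese anti–PD-1 tumor 3 the count was 2. Axl, a receptor kinase, was at 37.2, 49.0 and 44.7 CPM and 17, 24.6 and 31.6 in nonobese mice, and at 34.0, 16.2 and 32.4 CPM and 41.5, 87.5 and 68.8 in obese mice, without overlap in either diet. Of 22 cell cycle and DNA replication genes 0 were called, with a median of -0.04 and a range from -0.28 to 0.40. The counts were also 0 called in each direction for 17 targets of the ERK pathway (median 0.13), 16 glycolysis and hypoxia genes (0.27), 20 oxidative phosphorylation genes (0.05), 19 cholesterol and fatty acid synthesis genes (0.04), 20 cytosolic ribosomal protein genes (0.21, with 18 above 0), 16 ribosome biogenesis genes (0.37, with 15 above 0) and 16 genes of transport from the endoplasmic reticulum to the Golgi (-0.15). The ribosomal protein median was 0.077 without nonobese anti–PD-1 tumor 3 and 0.37 without nonobese anti–PD-1 tumor 1. Those of the glycolysis and ERK target lists were 0.018 without nonobese isotype tumor 1 and 0.039 without obese anti–PD-1 tumor 1. A list of estrogen response genes was chosen by the study on the isotype tumors used here, so that it is not independent of them. The list of 9 had a median of 0.38 and 0 called genes. With single tumors left out, up to 2 of these 9 genes (without obese anti–PD-1 tumor 1) and up to 1 ERK target (without nonobese isotype tumor 2, nonobese anti–PD-1 tumor 1 or 2, or obese isotype tumor 1) were called more positive. Of sex steroid receptors and enzymes 10 of 16 were tested, and Hsd17b1 was called more negative (-2.53), with levels of 0.610, 1.36 and 5.57 CPM in the nonobese anti–PD-1 tumors. Without nonobese anti–PD-1 tumor 3, the highest of these, its difference was -1.19 and it was not called. Hsd17b1 was also not called without obese isotype tumor 1, without obese anti–PD-1 tumor 2 or with limma-voom.

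Of 17 genes of the amino acid stress response, 2 were called more negative, Gpt2 and Cth, and 14 had a difference below 0, with a median of -0.44. The median was -0.24 without nonobese isotype tumor 3 and -0.56 without nonobese anti–PD-1 tumor 3. With single tumors left out, 1 to 3 genes of the list were called. The count was 1 without nonobese isotype tumor 3, nonobese anti–PD-1 tumor 2 or obese isotype tumor 1, and in each of these cases the difference of Gpt2 was inside the fold threshold (-0.97 at the nearest to 0). It was 3 without nonobese isotype tumor 1 or 2, nonobese anti–PD-1 tumor 1 or 3, or obese isotype tumor 3. The response is driven by the transcription factor Atf4 (-0.94), and its targets Slc7a11 (-0.78), Mthfd2 (-0.67), Trib3 (-0.63) and Sesn2 (-0.54) were not called. Median changes were 0.04 in nonobese and -0.39 in obese mice, so that the difference lay in the obese arm. Gpt2 (chromosome 8, 85492576 to 85528902), which encodes a mitochondrial alanine aminotransferase, was at 42.0, 36.2 and 30.7 CPM and 45.8, 53.3 and 38.3 in nonobese mice, where the groups overlapped. The obese groups were at 60.2, 54.1 and 48.8 CPM and 29.8, 33 and 33.3, without overlap, and its log2 difference was -1.10 (standard error 0.20, edgeR FDR 0.106). Cth, which encodes an enzyme of cysteine synthesis, was at 13, 13.5 and 8.58 CPM and 14.5, 17.9 and 16.7 in nonobese mice, and at 17.1, 15.4 and 10.9 CPM and 7.90, 8.46 and 6.75 in obese mice. It separated in both diets, and the estimate was -1.39 on the log2 scale (standard error 0.29, edgeR FDR 0.117). Fgf21, a hormone gene induced by this response, was at 6.33, 2.53 and 1.99 CPM and 7.57, 10.8 and 3.83 in nonobese mice, and at 13.3, 7.69 and 4.30 CPM and 0.635, 3.15 and 2.01 in obese mice. Its log2 difference was -3.12 (standard error 0.81, edgeR FDR 0.141). Dnajb9, which encodes a chaperone cofactor of the endoplasmic reticulum, was at 20.4, 13.3 and 14.7 CPM and 22.2, 21.4 and 15.2 in nonobese mice, and at 30.5, 31.0 and 26.6 CPM and 14.9, 18.5 and 16.5 in obese mice (log2 difference -1.09, standard error 0.26). Its log2 difference was -0.96 without nonobese isotype tumor 2, and it was not called in that fit, nor without nonobese anti–PD-1 tumor 1 or obese anti–PD-1 tumor 1.

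The other genes with the smallest P values on the negative side belonged to no list. Slc17a9, which encodes the vesicular nucleotide transporter, was at 2.22, 1.62 and 1.08 CPM and 2.74, 2.63 and 3.34 in nonobese mice, and at 3.2, 3.57 and 2.77 CPM and 0.917, 1.28 and 1.19 in obese mice. It separated in both diets, and the estimate was -2.29 on the log2 scale (standard error 0.44, edgeR FDR 0.107). Fign, Ypel2 and the long noncoding RNA 5430405H02Rik also separated in both diets, with differences of -1.52, -1.19 and -2.22. Rwdd2a differed by -1.74 with the larger change in nonobese mice (1.05), whereas Hoxb9, a homeobox gene, differed by -1.39 with the larger change in obese mice (-1.03). Kansl1l and the transcribed pseudogene 4632415L05Rik differed by -1.10 and -1.09. Without nonobese anti–PD-1 tumor 3, Ypel2 (-0.99), Kansl1l (-0.87) and 4632415L05Rik (-0.82) fell short of the fold threshold. Kansl1l also did so without nonobese isotype tumor 3 or obese isotype tumor 2, and 4632415L05Rik without obese anti–PD-1 tumor 2. Of the 109 genes, 15 were long noncoding and 3 small nucleolar RNA genes, against 1 and 0 of the 645 genes of the other direction.

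The called genes changed as single tumors were left out. Without nonobese anti–PD-1 tumor 3, the tumor with the low ribosomal protein sum, 61 genes were called more negative, 37 of them among the original 109, and 799 were called more positive, 614 of them among the original 645. Without nonobese anti–PD-1 tumor 1, the numbers were 247 and 592, of which 94 and 533 were among the original ones. Of the original 109 genes, 53 were called without obese isotype tumor 1, 53 without obese isotype tumor 2, 57 without nonobese isotype tumor 3, 58 without obese anti–PD-1 tumor 2 and 60 without obese anti–PD-1 tumor 1. Of the original 645 genes, 495 to 631 were called with a single tumor left out. The called genes that were more positive thus made up 70.6% to 92.9% of all called genes when each tumor was left out in turn, against 85.5% with all tumors. Gene families chosen after their values were seen were also fitted without nonobese anti–PD-1 tumor 3, and with no other tumor left out. Small nucleolar RNA and host genes (Snora, Snord and Snhg) were called more negative for 5 of 26 and had a median difference of -1.30, which became -0.16 with 0 called without it. Of 255 long noncoding RNA genes 15 were called more negative (median -0.33), and 4 without it (-0.08). Zinc finger genes (Zfp, Zkscan, Zscan and Zik) were called more negative for 7 of 335 genes, with a median of -0.26, and for 1 gene without it, with a median of -0.19.

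**Figure D5:**
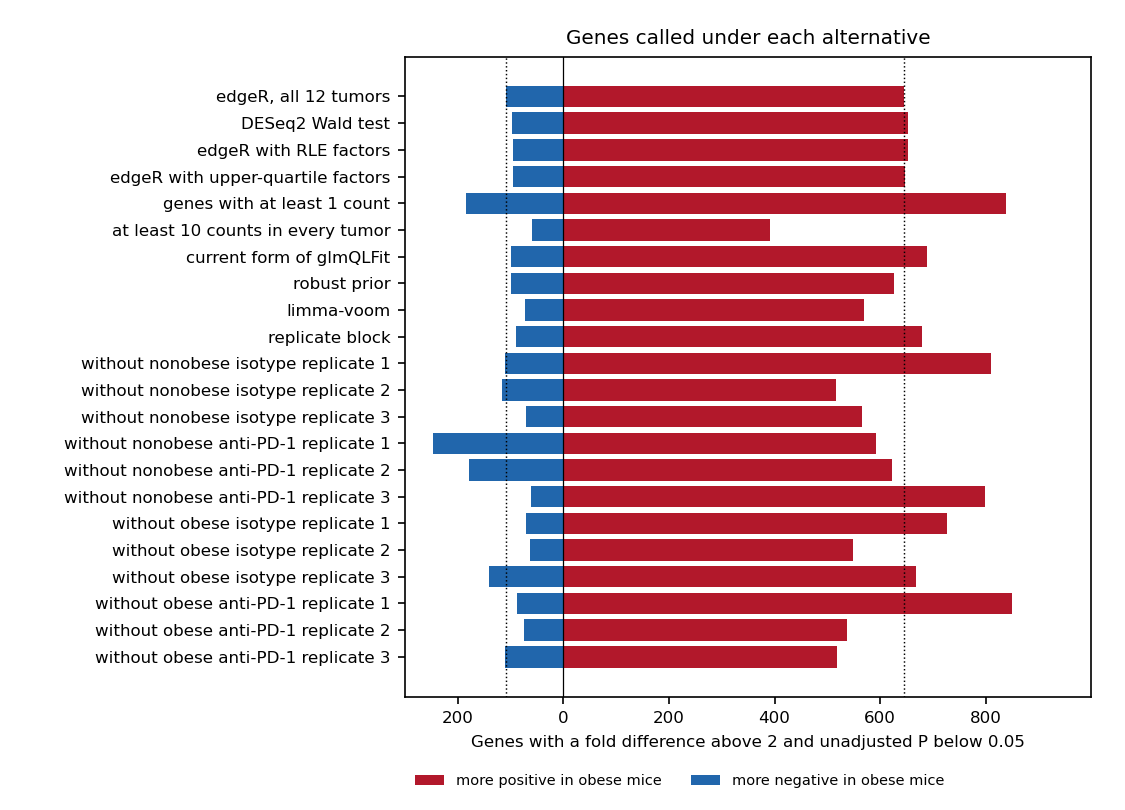
Number of genes called more positive (red, to the right) and more negative (blue, to the left) in obese mice under each alternative analysis and with each tumor left out; dotted lines mark the 645 and 109 genes of the edgeR fit with all tumors. The red bars exceed the blue bars in every row, between 391 and 849 genes against 60 to 247.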

How the data were processed

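RNA of 12 tumors was sequenced as single-end reads of 100 bases from stranded poly(A) libraries (180 ng of total RNA each). Per the labels, the authors used FastQC 0.11.5, STAR 2.7.0f, HTSeq 0.9.1, edgeR 3.28.1 and the mm10 build, and they deposited raw counts per gene for 23420 gene symbols. The strand setting and the annotation release of the counting are not given in the sources used here, so overlapping genes and close paralogs are uncertain. All columns were matched to tumors by name, and molecular identifiers are not named in the sources used here.

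Counts were filtered with filterByExpr, scaled by TMM (factors 0.951 to 1.09) and fitted with 4 group means (8 residual degrees of freedom, common dispersion 0.0352) in edgeR 4.0.16 under R 4.3.3. The quasi-likelihood F-test took its earlier form (legacy=TRUE), as in the version of the authors. The thresholds on fold and P value follow the study's methods. P values were adjusted by Benjamini-Hochberg over all genes tested, and standard errors were derived from the F statistic. CPM values divide a count by the TMM-scaled library size, and list levels are sums of CPM or means of log2 CPM with a prior count of 2. Replicates differed by a chi-square per gene of 9.71 to 72.5, so every tumor was counted. Alternatives were DESeq2 1.42.0, voom in limma 3.58.1, other scaling and filters, and leaving out each tumor. The code was tested on simulated counts. Coordinates are 1-based (GRCm38.p6).

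The genes, gene lists and comparisons were chosen with earlier results of these data known. Genes were named from, in each direction, the 12 called genes lowest in P, up to 3 called genes per list (or the 1 tested gene with the smallest P value) and 4 immune genes that the study measured by qPCR. Other genes were named after their values were seen, to show the range of a list. For a group at 0, 3 counts over the group were taken as the floor, which covers counting error only. Values of a few members of the lists are not reported here.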

Additional observations from a re-analysis of the deposited data

Results flagged for a closer look

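In the following 15 of the 24 genes with the smallest P values (12 per direction), every anti–PD-1 tumor lay on one side of every isotype tumor in nonobese mice and on the opposite side in obese mice. Over all genes tested, 0.718% and 0.710% showed this arrangement in one or the other direction, and selecting genes by the P value of the difference favors it. The log2 difference was 2.23 for Ifit3, 4.61 for Apol9a, 2.99 for Ifi27l2a, 2.35 for Fcgr3, 5.38 for Adipoq, 2.15 for H2-T23, 2.75 for Pla2g7, 2.55 for Ctss, 2.63 for Lpl and 2.51 for Pf4. It was -2.29 for Slc17a9, -1.39 for Cth, -1.52 for Fign, -1.19 for Ypel2 and -2.22 for 5430405H02Rik. The difference itself was tested with edgeR and had an FDR between 0.0596 and 0.159 in these genes. Without nonobese anti–PD-1 tumor 3, Ypel2 (-0.99) fell short of the fold threshold.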

How the results depend on the processing

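The numbers of called genes were 645 and 109, with 0 at an FDR below 0.05 (1687 genes at an unadjusted P below 0.05). Testing genes with at least 1 count gave 184 more negative genes and 55 at an FDR below 0.05. At least 10 counts in every tumor, which tests fewer genes, gave 391, 60 and 2, limma-voom gave 72 more negative genes, and DESeq2 and a robust prior gave 283 and 5 genes at an FDR below 0.05. The cause of the differences between tools was not tested. When tumors were left out, 516 to 849 genes were more positive, 61 to 247 more negative and 0 to 197 had an FDR below 0.05. The 197 came without obese anti–PD-1 tumor 1, 111 without nonobese isotype tumor 1 and 37 without nonobese anti–PD-1 tumor 3. Groups share replicate numbers, but the study's methods name no pairing, and the main fit used none. Same-numbered tumors correlated at 0.133 on average (10 of 18 pairs over 0.1), and tumors with other numbers at -0.062. The tumors numbered 1 of nonobese isotype, nonobese anti–PD-1 and obese anti–PD-1 correlated with each other at 0.44 to 0.56. With obese isotype tumor 1 they correlated at -0.15 to -0.04. Whether the numbers mark a shared factor was not tested. The fit with a replicate block gave 679, 90 and 11 genes, and 18 of 21 muscle genes called in place of 2. Named genes kept their direction, apart from Krt5, whose fitted difference ran from -0.19 without obese anti–PD-1 tumor 2 to 9.95 without obese isotype tumor 1. Each of these fits leaves a group at 0 counts, so neither value is a bound and no direction is read from them. Leaving out a tumor ended a call of a named gene 36 times and kept the direction and call 824 times, and the other settings did so 13 and 615 times. With at least 10 counts in every tumor, 2 lymphocyte and 0 neutrophil genes could be tested.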

Other observations

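Further gene families and genes, chosen after their values were seen, are given as values. Over all genes tested, 4.93% were called more positive in obese mice and 0.832% more negative. The genes called more positive were 10 of 16 Clec genes (C-type lectins, median log2 difference 2.05), 6 of 7 Ms4a genes (2.51), 4 of 4 Fcgr genes (2.36), 5 of 11 Tlr genes (Toll-like receptors, 1.34) and 4 of 8 Cd300 and Lilr genes (1.54). Schlafen (Slfn) genes, which interferons induce, were called for 4 of 7 (1.86), and matrix metalloproteinase (Mmp) genes for 5 of 13 (0.76). None of these families had a gene called more negative. Hox genes were called more negative for 3 of 24 (median -0.53), and for 1 without nonobese anti–PD-1 tumor 3 (-0.30).

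Hp, which encodes haptoglobin, had 395, 1053 and 468 counts with isotype in nonobese mice and 40, 237 and 277 counts after anti–PD-1, and 155, 140 and 339 counts against 820, 563 and 1872 counts in obese mice. The estimate was 4.08 on the log2 scale (standard error 0.78, edgeR FDR 0.107). Foxp3, the transcription factor of regulatory T cells, had 3, 15 and 18 counts in obese anti–PD-1 tumors and 0 to 10 in the others (3.18, standard error 1.15, edgeR FDR 0.271). Ifnlr1, a receptor chain for type III interferons, was called more negative (-1.64, standard error 0.54, edgeR FDR 0.228).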
